A study of Homo sapiens with 6 samples.

Results

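The genes described here encode 8 proteins that B cells carry on their surface and that antibodies, antibody-drug conjugates or engineered T cells are used or tested against: MS4A1 (CD20), CD79A, CD79B, CD38, CD52, CR2 (CD21), CD24 and CD72. They were chosen by name, and each matched 1 row of the 58735 genes in the expression table. The study cultured Raji, a human B-cell line from a Burkitt lymphoma that carried a GFP and firefly luciferase reporter in both groups, and kept the cells overnight at 37 °C with bryostatin-1 at 1 nM or with its solvent DMSO. Bryostatin-1 is a macrocyclic lactone that binds protein kinase C. Polyadenylated RNA was sequenced from 3 libraries per group. Whether each library had its own culture is not stated in the labels, and p-values therefore reflect only library-to-library spread, which may be technical. The line is 1 tumour's cells, and no other B-cell line was part of the design.

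Mature B cells sense antigen through membrane immunoglobulin, which signals through the CD79A and CD79B chains and their tyrosine activation motifs. CR2 binds complement fragments on antigen and lowers the threshold for that signal, while CD72 recruits a phosphatase that dampens it. MS4A1 is the target of rituximab, CD79B of polatuzumab vedotin, CD38 of daratumumab and CD52 of alemtuzumab. Burkitt lymphoma cells resemble germinal centre B cells, which carry most of these proteins. RNA levels say nothing direct about how much protein reaches the surface.

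Reads assigned to genes, recovered from the FPKM values (fragments per unit of gene length, scaled to library size), numbered 19405370 to 24468270 per library, so that 3 reads, the upper bound for a gene with no read, equal 0.123 to 0.155 CPM (counts scaled to library size). The B-cell identity of the libraries was visible in 8 of 9 marker genes at 1 FPKM or more, with a summed level of 559.3 to 679.8 FPKM in DMSO and 480.3 to 597.6 with bryostatin. Markers of T cells (9 of 10), NK cells (6 of 7) and myeloid cells (8 of 8) lay under 1 FPKM, among them CD2, CD7, NCAM1, NCR1, KLRD1, S100A8 and MPO, listed at 0 in every library. DMSO replicate 3 stood apart from the other DMSO libraries, being the lowest of the 6 libraries for 4 of the 7 antigen genes above 1 FPKM. Results are given with and without it. Other libraries deviated as much in these genes. DMSO replicate 2 was the highest of the 6 for 5 of the 7. DMSO replicate 3 and bryostatin replicate 2 were each the lowest of their own group for 5. Mean deviations from each gene's mean were 0.28 log2 units for DMSO replicate 2, -0.22 for DMSO replicate 3 and -0.21 for bryostatin replicate 2. The reads of DMSO replicate 3 and another library were also compared by chi-square per gene, over 13384 to 13804 genes with enough reads in the pair. It was 37.6 and 38.9 for DMSO replicates 1 and 2, 36.6 for bryostatin replicate 1, and 21.2 and 24.9 for bryostatin replicates 2 and 3. By that measure DMSO replicate 3 lay nearer to 2 bryostatin libraries than to either other DMSO library. Its group was taken from the labels, and why it stood apart was not tested.

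RefSeq (build GRCh38.p14) gave start-site windows, from 250 bases before to 50 after the start, for 6 of the 8 genes; MS4A1 and CD79B were not matched. Windows of 4 genes are shown. CD79A had the most abundant transcript, and CD38 the profile farthest from that of MS4A1. CD52 and CR2 had similar profiles over the libraries (correlation 0.86), although CD72, whose window is not shown, lay nearer to CD52 (0.93). Capitals mark matches, on either strand, to 5 motifs: TGANTCA (AP-1, a known end point of protein kinase C signalling), CAGGTG (an E-box bound by TCF3), ATGCAAAT (the octamer), CCCNNGGGA (EBF1) and GAGGAAG (PU.1 and SPIB). All are on the plus strand of the reference, CD79A at chr19:41877029-41877328, CD52 at chr1:26317708-26318007, CR2 at chr1:207454078-207454377 and CD38 at chr4:15778078-15778377.
CD79A: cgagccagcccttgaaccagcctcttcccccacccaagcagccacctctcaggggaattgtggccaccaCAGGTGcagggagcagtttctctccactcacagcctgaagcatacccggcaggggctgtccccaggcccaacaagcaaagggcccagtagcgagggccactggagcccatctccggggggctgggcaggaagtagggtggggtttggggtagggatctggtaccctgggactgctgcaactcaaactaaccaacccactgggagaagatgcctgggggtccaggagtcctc
CD52: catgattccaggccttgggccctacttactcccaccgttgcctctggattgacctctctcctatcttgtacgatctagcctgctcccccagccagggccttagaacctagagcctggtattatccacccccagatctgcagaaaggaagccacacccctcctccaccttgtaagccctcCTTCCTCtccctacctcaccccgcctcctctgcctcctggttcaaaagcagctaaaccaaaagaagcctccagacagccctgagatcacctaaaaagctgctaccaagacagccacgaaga
CR2: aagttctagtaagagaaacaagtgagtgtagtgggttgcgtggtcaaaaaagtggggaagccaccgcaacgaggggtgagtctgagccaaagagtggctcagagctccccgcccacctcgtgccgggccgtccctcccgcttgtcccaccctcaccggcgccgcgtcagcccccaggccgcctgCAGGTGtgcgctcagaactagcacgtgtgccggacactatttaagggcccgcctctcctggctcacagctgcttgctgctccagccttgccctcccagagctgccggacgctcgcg
CD38: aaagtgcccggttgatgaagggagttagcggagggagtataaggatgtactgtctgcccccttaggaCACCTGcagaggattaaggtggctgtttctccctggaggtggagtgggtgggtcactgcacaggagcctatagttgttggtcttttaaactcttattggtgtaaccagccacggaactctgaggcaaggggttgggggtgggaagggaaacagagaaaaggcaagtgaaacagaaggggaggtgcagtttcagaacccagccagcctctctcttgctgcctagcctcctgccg
The AP-1 and octamer letters were in none of the matched members' windows, against 7.71% and 1.77% of all 35116 windows. CAGGTG occurred in windows of 4 members (CD79A, CR2, CD38 and CD24) and in 20.6% of all windows. GAGGAAG was found for CD52 and CD72 (13.6% of all), and CCCNNGGGA for CD24 alone (8.86% of all). In CD24 a pair of EBF1 matches overlapped each other. CD24 had several windows, and all its matches lay in the window starting at base 106973990. Members are counted by gene and the percentages by window, so they are not like for like. CD79A, CD52 and CD38 windows held 4 CpG dinucleotides each and the CR2 window 21, against a median of 14. These matches describe letters only.

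Transcript levels differed widely between the 8 antigens, and levels are compared here per length, as FPKM. CD79A was the most abundant at a mean of 465.0 FPKM over the 6 libraries, rank 82 of all genes. CD52 (233.3), MS4A1 (231.1) and CD79B (217.0) followed at ranks 149, 153 and 162. Neighbours among these did not separate: CD52 was above MS4A1 in 3 of 6 libraries and MS4A1 above CD79B in 4. CR2 (126.9 FPKM) was below CD79B in all 6 libraries although their ranges touched. CD38 (37.2) and CD72 (28.2) did not separate either, CD38 being above CD72 in 3 of 6 libraries, and CD24 came last at 0.322.

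**Figure D1:**
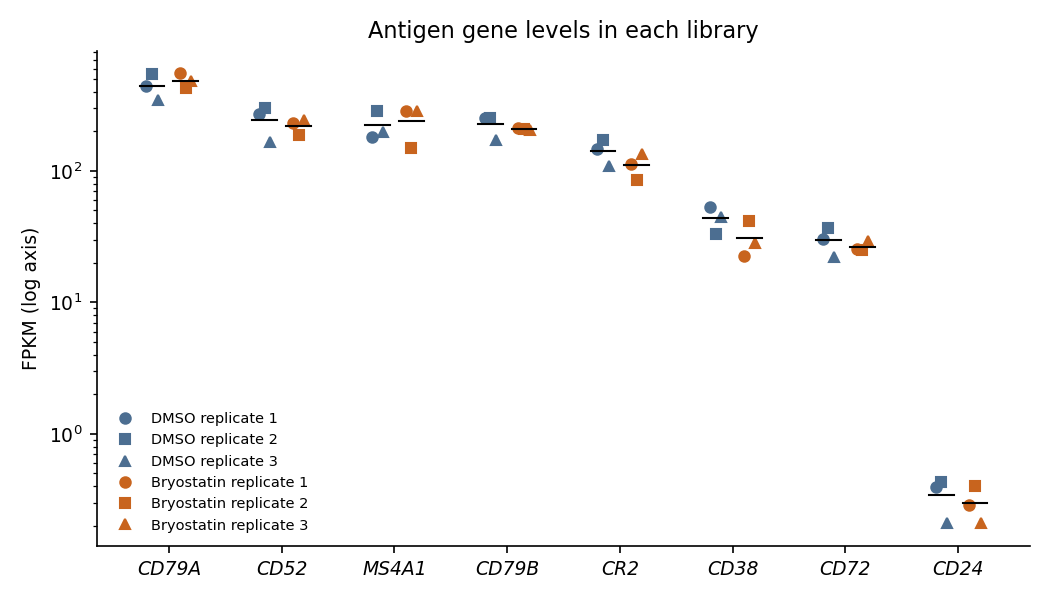
FPKM of each antigen gene in the 6 libraries on a log axis, DMSO in blue and bryostatin in orange, with replicates by marker shape and a bar at each group mean. CD79A lies highest and CD24 lowest, and the 2 groups overlap for every gene.

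For all 8 antigen genes the libraries of both groups overlapped, and in limma none reached an adjusted p under 0.05. In bulk RNA, fewer cells with a transcript and less of it per cell cannot be told apart. Over the 7 genes tested (mean of at least 1 FPKM), 0 had an unadjusted p under 0.05 and 0 were free of overlap. The background is 0.0% of 11071 tested genes at the adjusted threshold, 17.6% at an unadjusted p under 0.05 (1954 genes, 1159 higher and 795 lower with bryostatin) and 23.6% without overlap. Voom weights on the recovered reads gave 0 genes at the adjusted threshold and 2181 at an unadjusted p under 0.05 (1152 higher and 1029 lower). In limma at that unadjusted p, 848 genes were higher and 1099 lower after rescaling to TPM. After quantile normalisation 893 were higher and 1017 lower. Of the 7, 5 had a lower and 2 a higher mean with bryostatin, with a median log2 change of -0.12, where 46.1% of all tested genes lay below 0. All changes were computed from log2(FPKM + 1), so those of low genes are understated. An exact permutation test of 3 against 3 libraries cannot give a two-sided p below 0.1.

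Of the B-cell receptor chains, CD79A (ENSG00000105369, chromosome 19, 41877120 to 41881372, hg38) was at 441.9, 541.2 and 349.0 FPKM in DMSO replicates 1 to 3 and at 553.0, 423.4 and 481.8 FPKM in bryostatin replicates 1 to 3. The highest and lowest libraries were bryostatin replicate 1 and DMSO replicate 3, and the ranges interleave. Means were 444.0 ± 96.1 and 486.0 ± 64.9 FPKM (SD, n = 3 each), a log2 change of 0.14 with a 95% interval of -0.28 to 0.57 (adjusted p = 0.689 in limma). Its partner CD79B (ENSG00000007312, chromosome 17, 63928740 to 63932354) measured 252.2, 254.2 and 172.3 FPKM in the DMSO libraries and 211.0, 206.9 and 205.1 FPKM in the bryostatin libraries. All 3 bryostatin values lay inside the gap between DMSO replicate 3 and the other DMSO libraries. Means were 226.3 ± 46.7 and 207.7 ± 3.06 FPKM, a log2 change of -0.10 with an interval of -0.47 to 0.27 (adjusted p = 0.761). The log2 change of CD79B was -0.012 without DMSO replicate 1 and -0.0059 without DMSO replicate 2. For both chains a 1.5-fold change either way lay outside the interval. A read-through gene, AC127029.3, overlaps CD79B on the same strand and was at 0.00803 FPKM.

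The chains pair in the receptor, and CD79A RNA exceeded CD79B RNA in every library. The ratio of their FPKM was 1.75, 2.13 and 2.03 in the DMSO libraries against 2.62, 2.05 and 2.35 in the bryostatin libraries, with group means of 1.97 ± 0.195 and 2.34 ± 0.287. DMSO replicate 2 lay inside the bryostatin range, and the ratio was not tested.

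MS4A1 (ENSG00000156738, chromosome 11, 60455752 to 60470760), a tetraspan-type protein that helps B-cell calcium entry, measured 181.0, 287.6 and 196.1 FPKM in the DMSO libraries and 287.5, 150.3 and 283.7 FPKM in the bryostatin libraries. Levels lay either at 283.7 FPKM and above (DMSO replicate 2, bryostatin replicates 1 and 3) or at 196.1 and below (DMSO replicates 1 and 3, bryostatin replicate 2), with both treatments in each set. The log2 change was 0.09 with a 95% interval of -0.59 to 0.76 (adjusted p = 0.894 in limma), so a 1.5-fold change either way stayed within it and a 2-fold change did not. Its sign was negative without DMSO replicate 1 (-0.042) or bryostatin replicate 1 (-0.071) or 3 (-0.061), and under quantile normalisation (-0.017).

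CD38 (ENSG00000004468, chromosome 4, 15778275 to 15853230), an ectoenzyme that consumes NAD, had the largest log2 change of the 7 over all 6 libraries. It measured 52.9, 32.9 and 44.8 FPKM in the DMSO libraries and 22.5, 41.7 and 28.3 FPKM in the bryostatin libraries. The same 3 libraries that were high in MS4A1 were the 3 lowest in CD38, between 22.5 and 32.9 FPKM, and the others lay between 41.7 and 52.9. Means were 43.5 ± 10.1 and 30.8 ± 9.85 FPKM, 1.42-fold lower with bryostatin (log2 change -0.50, 95% interval -1.09 to 0.08, adjusted p = 0.328 in limma). That interval reached from 2.13-fold lower to 1.06-fold higher, and the log2 change ran from -0.74 to -0.31 with single libraries left out. Without bryostatin replicate 2 or without DMSO replicate 2 the groups no longer overlapped for CD38 (-0.74 and -0.69, adjusted p = 0.253 and 0.310 in limma). Of all genes, 37.8% and 36.3% were free of overlap in those fits, and 17.0% and 15.2% had an unadjusted p under 0.05, as CD38 did.

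Some genes of the fixed lists divided the libraries in a similar way, and most did not. PTPN6, of the receptor signalling list, measured 54.0, 124.8 and 38.8 FPKM in the DMSO libraries and 111.3, 32.6 and 103.4 FPKM in the bryostatin libraries. In that list MALT1 and VAV1 were also higher in the 3 libraries high in MS4A1. SYK, BLNK and DAPP1 were lower there, as CD38 was, and the rest did not divide the libraries. The share of all tested genes with such a division was not counted. MS4A7, the only other MS4A family member of 17 listed to reach 1 FPKM, measured 1.83, 5.40 and 1.94 FPKM in the DMSO libraries and 5.17, 1.40 and 4.67 FPKM in the bryostatin libraries. TRAC, the T-cell receptor alpha constant gene and the sole T-cell marker above 1 FPKM, was at 11.5 FPKM or more in the 3 libraries high in MS4A1 and at 3.66 or less in the others. The summed T-cell list ran from 3.39 to 12.0 FPKM in DMSO and from 3.66 to 13.7 with bryostatin. Most of that sum was TRAC, and the other 9 listed markers were each under 1 FPKM. CD3E and CD3G did not divide the libraries this way. They were at 0.0652 and 0.0121 FPKM in bryostatin replicate 3, against 0.176 and 0.0391 in bryostatin replicate 2. The part of any of these genes in the MS4A1 and CD38 values was not tested. The labels give no batch or date.

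**Figure D2:**
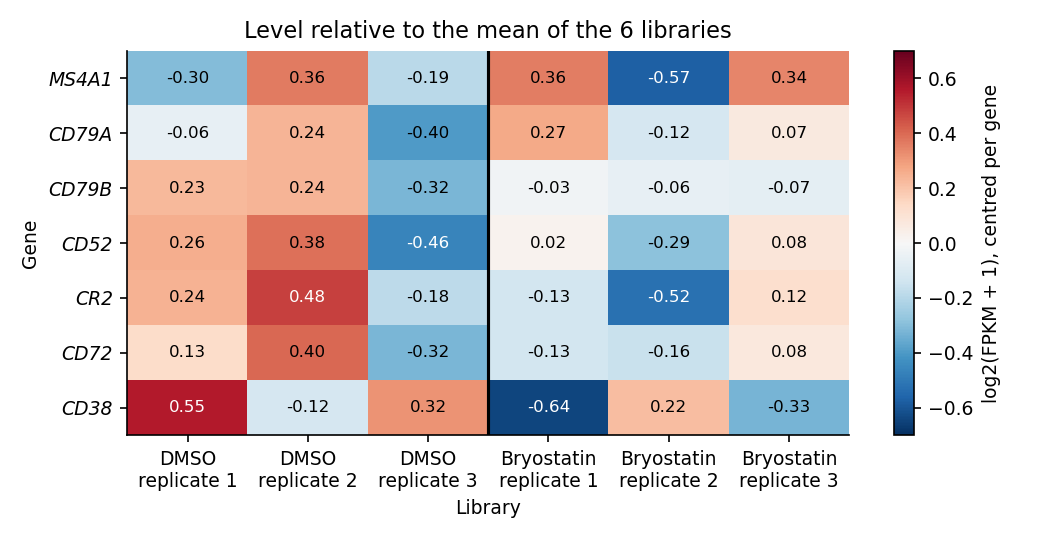
Level of the 7 tested antigen genes in each library as log2(FPKM + 1) minus the gene's mean over the 6 libraries, red above and blue below the mean. MS4A1 is 0.34 to 0.36 above its mean in DMSO replicate 2 and bryostatin replicates 1 and 3, where CD38 is 0.12 to 0.64 below its own.

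The complement receptor CR2 (ENSG00000117322, chromosome 1, 207454230 to 207489895), also the receptor for Epstein-Barr virus, measured 146.5, 173.0 and 108.9 FPKM in the DMSO libraries and 113.0, 85.9 and 134.3 FPKM in the bryostatin libraries. DMSO replicate 3 lay inside the bryostatin range and the other DMSO libraries above it. Means were 142.8 ± 32.2 and 111.0 ± 24.3 FPKM, 1.28-fold lower (log2 change -0.36, 95% interval -0.86 to 0.15, adjusted p = 0.406 in limma). The log2 change of CR2 was -0.19 without bryostatin replicate 2 and -0.21 without DMSO replicate 2. It was larger than that of CD38 without DMSO replicate 3 (-0.54 against -0.47), bryostatin replicate 1 (-0.38 against -0.31) or bryostatin replicate 3 (-0.51 against -0.46). CR1, the next gene on the chromosome at 6251 bases and a member of the same complement receptor cluster, was at 0.00130 FPKM. CD55, the neighbour on the other side, was at 9.12 FPKM. CD81, which joins CR2 in the B-cell coreceptor, measured 30.2, 30.4 and 33.8 FPKM in the DMSO libraries. In the bryostatin libraries CD81 measured 36.6, 34.3 and 35.6 FPKM, without overlap (log2 change 0.17, adjusted p = 0.325 in limma). Of all tested genes, 12.9% were likewise higher without overlap. FCER2 (CD23), another CR2 ligand, had 65.4 ± 16.8 and 46.7 ± 6.98 FPKM (adjusted p = 0.302).

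CD72 (ENSG00000137101, chromosome 9, 35609533 to 35646810), a C-type lectin with an inhibitory motif, measured 30.5, 37.0 and 22.1 FPKM in the DMSO libraries and 25.4, 24.9 and 29.4 FPKM in the bryostatin libraries. As for CD79B, every bryostatin library lay between DMSO replicate 3 and the other DMSO libraries. The log2 change was -0.14 with a 95% interval of -0.56 to 0.29 (adjusted p = 0.705 in limma), with a 1.5-fold change either way outside it. TESK1, at 14.6 FPKM, overlaps the end of CD72 on the opposite strand, and without a known strand setting reads of the shared stretch cannot be told apart. SEMA4D, which encodes a CD72 ligand, had a log2 change of -0.14 (adjusted p = 0.463).

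CD52 and CD24 encode short glycoproteins held in the membrane by a lipid (GPI) anchor. CD52 (ENSG00000169442, chromosome 1, 26317957 to 26320523) measured 273.0, 298.6 and 165.7 FPKM in the DMSO libraries and 232.6, 187.3 and 242.4 FPKM in the bryostatin libraries. DMSO replicate 3 was the lowest of the 6 and DMSO replicates 1 and 2 the highest. Means were 245.8 ± 70.5 and 220.8 ± 29.4 FPKM, a log2 change of -0.12 with an interval of -0.66 to 0.42 (adjusted p = 0.811 in limma). Its start overlaps UBXN11 on the opposite strand, which was at 11.3 FPKM. CD24 (ENSG00000272398, chromosome 6, 106969831 to 106975627), a ligand of SIGLEC10, measured 0.393, 0.427 and 0.210 FPKM in the DMSO libraries and 0.289, 0.403 and 0.209 FPKM in the bryostatin libraries. These values rest on 13 to 30 reads per library, above the limit of 3, with a counting error near 21.7% for 1 library. CD24 lay below the level needed for the test. With no filter on low values its log2 change was -0.045 in limma, with a 95% interval of -0.28 to 0.19 (adjusted p = 0.863). Its 3 annotated pseudogenes were listed at 0, and reads shared with such copies are uncertain. SIGLEC10 itself was at 1.62 FPKM. Of 27 listed genes for GPI anchor synthesis and attachment, 24 were tested, 15 higher and 9 lower, with 0 passing. DPM1 was the most abundant (log2 change 0.10) and DPM2 had the smallest p (log2 change 0.30, adjusted p = 0.232).

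**Figure D3:**
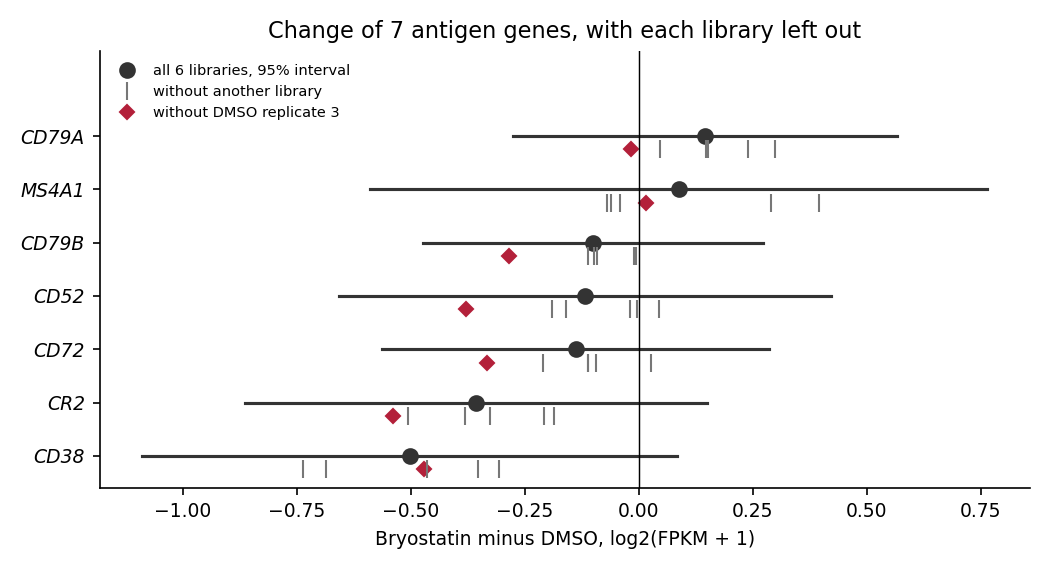
Difference of bryostatin minus DMSO in log2(FPKM + 1) for the 7 tested genes, as dots with 95% intervals, and below each the same value with single libraries left out (diamonds for DMSO replicate 3, ticks for the others). All intervals include 0, and without DMSO replicate 3 the values of CD79B, CD52, CD72 and CR2 lie between -0.29 and -0.54.

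Much of the comparison rested on DMSO replicate 3. That library was picked out by its low values in CD79A, CD79B, CD52 and CD72. Lower bryostatin levels and small p-values without it were therefore partly set by that choice, and are no test of a change. Without DMSO replicate 3, CD79B, CD52, CR2 and CD72 were each lower in all 3 bryostatin libraries than in DMSO replicates 1 and 2. Their log2 changes were -0.29, -0.38, -0.54 and -0.33, with unadjusted p-values of 0.00794, 0.0285, 0.0326 and 0.0325 in limma. None passed after adjustment (adjusted p = 0.0883, 0.149, 0.159 and 0.159). In that fit 25.8% of all genes had an unadjusted p under 0.05 (10.2% of all genes at that p and lower), 46.6% were free of overlap (19.7% lower) and 2.39% passed after adjustment. CD79A was at -0.017 there, turned from 0.14, and MS4A1 at 0.02. Conversely, without DMSO replicate 2 the signs of CD52 (0.044) and CD72 (0.026) turned positive.

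With all 6 libraries, replicates of the same treatment differed more in these transcripts than in most genes. The SD between libraries of a group, on the log2 scale, was 0.45 for MS4A1, 0.39 for CD38, 0.35 for CD52, 0.33 for CR2, 0.27 for CD72, 0.26 for CD79A and 0.23 for CD79B, against a median of 0.14 over all tested genes. Without DMSO replicate 3 the SD was 0.016 for CD79B, 0.15 for CD52, 0.16 for CD72, 0.20 for CD79A, 0.26 for CR2, 0.45 for CD38 and 0.50 for MS4A1, against a median of 0.12. CD79B then exceeded only 0.379% of tested genes, and CD52 68.4%. With all 6 libraries, MS4A1 exceeded 95.5% of tested genes and CD79B, the least variable of the 7, 78.8%. Among genes within 0.5 log2 units of their level, MS4A1 exceeded 93.1% of genes, CD38 95.8% and CD79B 70.8%. Counting error was small beside this, since MS4A1 averaged 23772 reads per library (0.649%) and CD72 2043 (2.21%). The width of the intervals above follows from this spread: 0.75 log2 units for CD79B to 1.35 for MS4A1, with a median of 0.54 over all tested genes.

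**Figure D4:**
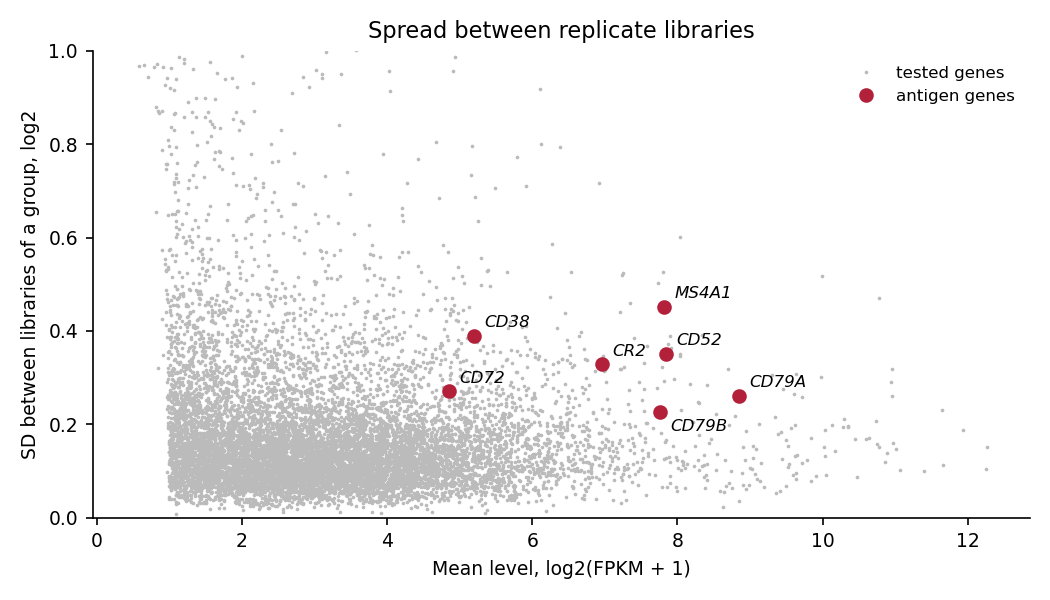
SD between replicate libraries of a group against mean level, both from log2(FPKM + 1), for tested genes (grey) and the 7 antigen genes (red); 46 genes with an SD over 1 are not drawn. MS4A1 at 0.45 is the most variable of the antigen genes and CD79B at 0.23 the least.

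Profiles over the 6 libraries were compared as the root mean square (RMS) difference of centred log2 levels. Within the 7 genes, CD79B, CD52 and CD72 lay close together (0.11 for CD79B with CD72 and CD52 with CD72, 0.14 for CD79B with CD52), while MS4A1 and CD38 were farthest apart at 0.74. DMSO replicate 2 was the highest of the 6 libraries in 5 of the 7 genes, where it was highest for 13.9% of all tested genes. DMSO replicate 3 was the lowest in 4, against 18.0% of all genes. Among 9258 other protein-coding genes, those nearest to MS4A1 were MOB3A and UTRN (RMS 0.081 and 0.084), and those nearest to CD38 were TP53INP2 and TBC1D9 (0.050 and 0.069). PQLC1 and EMC7 were nearest to CD79A (0.041 and 0.042), and NPC2 and IQCD to CD79B (0.027 and 0.028). For CD52 these were EDEM2 and ZSWIM4 (0.043 and 0.063), for CR2 ETFRF1 and HTR3A (0.075 and 0.081), and for CD72 SFN and TMC8 (0.041 and 0.043). With only 6 libraries many genes share a profile, and the likeness is a description.

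By position, several antigen genes were expressed beside almost silent neighbours. MS4A5, 537 bases from MS4A1, was at 0.00980 FPKM and MS4A12 on its other side at 0.00453. Of the 17 other MS4A family genes listed, 8 were listed at 0 in every library. GH1, the growth hormone gene beside CD79B, was at 0.0170 FPKM, and BST1, the paralogue and neighbour of CD38, at 0.0274. CD79A, in contrast, lies 4193 bases from RPS19, a ribosomal protein gene at 476.8 FPKM, and CD72 lies 2484 bases from SIT1, at 79.1.

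Genes that work with the antigens gave the setting for these values, and 0 of them passed after adjustment. Of all tested genes 46.1% had a log2 change below 0, 54.4% after rescaling to TPM and 51.4% after quantile normalisation. The lists were chosen with earlier results of these data known, so their counts are descriptions. Of 19 B-cell receptor signalling genes, 14 were lower and 5 higher with bryostatin, 5 at an unadjusted p under 0.05, all lower (background 7.18% lower at that p), with a median log2 change of -0.18 against 0.018 for all tested genes. INPP5D, a phosphatase that restrains the pathway, had the smallest p at 24.4 ± 1.94 FPKM in DMSO and 19.2 ± 1.16 with bryostatin (adjusted p = 0.217 in limma), and PIK3CD was the most abundant (log2 change -0.17). Of 17 tested B-cell transcription factors 13 were lower, 3 at that p, all lower; IKZF3 had the smallest p (log2 change -0.36, adjusted p = 0.240) and TCF3 was the most abundant (0.16). Complement regulators, which limit killing by antibodies to CD20, had 3 tested members, with CD46 at -0.06, CD55 at 0.17 and CD59 at 0.05. Among 16 tested other surface antigens used or tried as targets, all 16 had a lower mean with bryostatin, 8 at an unadjusted p under 0.05, with a median of -0.31. CD80 had the smallest p (log2 change -0.54, adjusted p = 0.216) and CD74 was the most abundant (-0.31). The 7 tested antigen genes had 0 members at that p. Of 11 listed ligands and partners 4 were tested, 3 lower and 1 higher. Plasma-cell markers, which B cells gain as they mature to antibody secretion, summed to between 344.0 and 394.7 FPKM in DMSO and between 348.6 and 392.5 with bryostatin. JCHAIN (mean 239.0 FPKM) and MZB1 (95.7) made up most of that sum. Of the 6 listed, 2 were under 1 FPKM, SDC1 at 0.00489 and PRDM1 at 0.502, and TNFRSF17 was at 1.21. Of 4 tested, 3 were lower and 1 higher. JCHAIN, the joining chain of secreted IgM and IgA, was the most abundant (log2 change -0.18, adjusted p = 0.400 in limma). MZB1, a chaperone for antibody assembly, had the smallest p (log2 change 0.43, adjusted p = 0.216 in limma). MZB1 was higher in every bryostatin library, 104.4 to 117.7 FPKM against 77.7 to 85.7, as were 12.9% of all tested genes. Of 8 tested B-cell markers 6 were lower and 2 higher, with VPREB3 the most abundant (-0.29, adjusted p = 0.479 in limma) and SPIB of the smallest p (-0.52, adjusted p = 0.299). NKG7, the only NK-cell marker tested, had a log2 change of -0.16 (adjusted p = 0.766).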

How the data were processed

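The authors deposited 1 table of FPKM values per gene and library, with gene lengths. Per the submitters' processing notes, the build was hg38 and the tools were DESeq2 1.20.0, featureCounts 1.5.0-p3, HISAT2 2.0.5 and CASAVA, with no step named for any. The strand setting and any filter: not given in the sources used here. The table's coordinates match GENCODE release 29 for all 58735 genes. Gene lengths are another deposited value, in bases. Multiplied by length, FPKM values came in equal steps in each library (tolerance 0.001 of a read), which gave the reads. No pair of libraries agreed within sampling noise (chi-square of at least 11.6 per gene).

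Genes averaging 1 FPKM or more entered limma 3.58.1 as log2(FPKM + 1) (R 4.3.3), with an intensity trend and Benjamini-Hochberg adjustment over 11071 genes at 0.05. Intervals are 95%. The fit was tested on simulated data. Named genes are all members, per list the most abundant and the smallest p, and per member the 2 nearest profiles. CD81, CD59, PTPN6, SDC1, PRDM1, TNFRSF17, SEMA4D, SIGLEC10, CR1, neighbouring genes and the motifs were added after values were seen. So were SYK, BLNK, DAPP1, MALT1, VAV1, CD3E and CD3G. The members and lists were chosen with earlier results of these data known. Alternatives were the pseudocount (0.1, 0.5), filter (none, 0.1, 5 FPKM), TPM, median-of-ratios, quantile, moderation, voom, a replicate block, protein-coding genes, length-trend removal and each library left out (for the spread between libraries, chosen after seeing the data).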

Additional observations from a re-analysis of the deposited data

How the results depend on the processing

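No member passed an adjusted p of 0.05 under any of the 20 alternatives run. The number of genes passing was 1 with a pseudocount of 0.1 and 1 with TPM, and 0 to 266 with 1 library left out, the 266 without DMSO replicate 3. Genes at an unadjusted p under 0.05 numbered 917 to 2868 with 1 library left out. Members at that p, and members without overlap, numbered 0 to 4, members lower 3 to 6 and members higher 1 to 4. Quantile normalisation gave 1 higher member, MS4A1 turning to -0.017. The median log2 change of the 7 members ran from -0.33 to 0.026 with a library left out, turning without DMSO replicate 2. Signs that turned were MS4A1 without DMSO replicate 1 (-0.042), bryostatin replicate 1 (-0.071) or 3 (-0.061), CD79A without DMSO replicate 3 (-0.017), and CD52 (0.044) and CD72 (0.026) without DMSO replicate 2. With a library left out MS4A1 ran from -0.071 to 0.39, CD79A from -0.017 to 0.30, CD52 from -0.38 to 0.044 and CD72 from -0.33 to 0.026. CD79B (-0.29 to -0.0059), CR2 (-0.54 to -0.19) and CD38 (-0.74 to -0.31) kept a negative sign in all. The causes were not tested. Same-numbered libraries did not deviate together (correlations of -0.29, -0.32 and -0.11 across genes), and no library correlated best with its own number. Deviations around means of only 3 libraries cannot show whether same-numbered libraries shared a culture or day, and the labels do not say. With the replicate number as a block, 1191 genes had an unadjusted p under 0.05 in limma and 0 passed. CD24 is limited by its 13 to 30 reads.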
